A study of Mus musculus with 10 samples.

Results

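The genes described here encode the ADAM, ADAMTS, ADAMTS-like (ADAMTSL) and matrix metalloproteinase (MMP) proteins and their tissue inhibitors, the TIMPs. They were taken by symbol: a row of the count table was a member if its name was Adam, Adamts, Adamtsl, Mmp or Timp followed by its number, with 2 MMP genes left out by the rule. This gave 51 of the 20579 genes in the table: 13 Adam, 19 Adamts, 5 Adamtsl, 11 Mmp and 3 Timp genes. The RNA came from intestinal crypt cells of mouse embryos at embryonic day 18.5 (strain C57BL6/J / 129S4) that were sorted by flow cytometry for green fluorescent protein made under the Hopx promoter. There were 5 libraries labelled p57KO, without p57Kip2, and 5 labelled p57WT. All 10 carried the Hopx reporter. Hopx marks slow-cycling intestinal stem cells and is also active in other cell types, so the sort can hold any cell in which that promoter is on. The missing protein is the product of Cdkn1c and holds back cyclin-dependent kinases.

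ADAMs are mostly membrane-bound proteases that cut the outer parts of receptors, growth factors and adhesion molecules off the cell surface, a step called shedding. Some have lost the catalytic site and act in binding. ADAMTS proteases are secreted and cut large matrix molecules: one group cleaves proteoglycans such as aggrecan and versican, another trims procollagen, and others act on or near fibrillin. ADAMTS-like proteins keep the binding modules without the protease. MMPs, either anchored in the membrane or secreted, cut collagens and other matrix proteins, and TIMPs bind metalloproteases and block them. In the gut wall these families are made largely by mesenchymal cells, while ADAM10 and ADAM17 are also made by epithelium, where they release Notch and ligands of the epidermal growth factor receptor.

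Cdkn1c checked the genotype labels. Its level was 2.06, 0.254, 0.770, 0.153 and 0.958 CPM (a gene's counts relative to the library's size) in p57KO 1 to 5 and at 164, 151, 198, 181 and 458 CPM in p57WT 1 to 5, which is a log2 fold change of -8.21 (SE 0.69, edgeR adjusted p = 0.0001). Without p57KO 1 the log2 fold change was -8.82. Total counts ranged from 8037887 to 26809231 per library, and the floor of 3 counts, below which a level cannot be told from 0, lay between 0.105 and 0.392 CPM. Summed epithelial markers (12 genes such as Epcam, Cdh1 and Vil1) ranged from 8691 to 16840 CPM in p57KO and from 2968 to 7174 CPM in p57WT. Summed smooth muscle markers (9 genes such as Acta2, Myh11 and Des) ranged from 4720 to 31999 CPM in p57KO and from 48302 to 96565 CPM in p57WT, so they stood above the epithelial sum in every library except p57KO 1 and p57KO 2. Libraries labelled as intestinal stem cells therefore held RNA of both kinds.

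Promoters of 4 members are shown to set members with different results side by side: Mmp14, Adamts17 and Adamts12 were lower in p57KO, and Adam10 was one of the abundant members whose level did not pass the test. The members with the largest changes in either direction are not among the 4. Each line gives the 250 bases before the RefSeq start in GRCm38.p6, 5′ to 3′ on the gene's strand, with matches to a GC box (GGGCGG on either strand) in capitals. All are on the plus strand: Mmp14 at chr14:54431348-54431597, Adamts17 at chr7:66839485-66839734, Adamts12 at chr15:11064523-11064772 and Adam10 at chr9:70678732-70678981.
Mmp14: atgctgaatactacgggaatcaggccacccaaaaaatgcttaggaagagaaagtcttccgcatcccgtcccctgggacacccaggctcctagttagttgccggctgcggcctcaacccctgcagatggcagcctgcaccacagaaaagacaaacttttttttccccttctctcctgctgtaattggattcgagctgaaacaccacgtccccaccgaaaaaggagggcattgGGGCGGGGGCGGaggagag
Adamts17: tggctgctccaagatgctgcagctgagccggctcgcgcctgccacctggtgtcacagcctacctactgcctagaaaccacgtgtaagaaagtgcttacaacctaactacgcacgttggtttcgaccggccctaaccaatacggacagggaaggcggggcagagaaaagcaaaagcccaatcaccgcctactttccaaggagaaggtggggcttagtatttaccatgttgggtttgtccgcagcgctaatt
Adamts12: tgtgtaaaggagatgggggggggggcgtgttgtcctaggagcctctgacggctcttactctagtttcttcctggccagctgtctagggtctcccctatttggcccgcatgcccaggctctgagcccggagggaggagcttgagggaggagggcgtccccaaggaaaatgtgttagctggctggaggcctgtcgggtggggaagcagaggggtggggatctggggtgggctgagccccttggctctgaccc
Adam10: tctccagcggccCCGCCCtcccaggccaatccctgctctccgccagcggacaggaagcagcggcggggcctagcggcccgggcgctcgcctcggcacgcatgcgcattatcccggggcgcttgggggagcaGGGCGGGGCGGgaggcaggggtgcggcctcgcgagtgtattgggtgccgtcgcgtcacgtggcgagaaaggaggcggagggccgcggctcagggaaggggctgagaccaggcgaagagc
Mmp14 held 2 GC boxes, Adam10 held 3, and Adamts17 and Adamts12 held 0. None of the 4 held the TATA box TATAAA on either strand. The same was true of the AP-1 site TGANTCA, which is known from MMP promoters, and of the CArG box of serum response factor. Of the 51 members, 31 had a promoter in the RefSeq table, with 35 promoters between them. GGGCGG was in 22 of these 31 (71.0%), against 32.7% of all 32851 promoters of that length. A member counted if any of its promoters matched, while the share of all is per promoter, so the 2 shares differ in unit. TATAAA was in 3 (9.68%, against 12.4% of all), TGANTCA in 3, namely Adam19, Mmp12 and Mmp20 (9.68%, against 6.75%), and the CArG box in 0 (against 1.47%). These are matches of letters and not measured binding.

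Most members were lower in p57KO. Of the 51, 43 passed the expression filter, and 27 of these (62.8%) were called lower at an edgeR adjusted p below 0.05, where 17.2% of all 16710 genes tested were lower. Only 2 members, Adam8 and Mmp20, were called higher (4.65%), where 19.3% of all genes tested were. The median log2 fold change of the 43 was -1.97, and that of all genes tested was 0.08. In 21 of the 43 (48.8%) the 5 p57KO values and the 5 p57WT values did not overlap, all 21 among the lower members, and 24.2% of all genes tested did not overlap. The 27 lower members had log2 fold changes between -4.23 and -1.23. All 27 were at least 2-fold lower, and 20 were at least 4-fold lower. These directions hold for libraries scaled to all genes by edgeR's trimmed mean of M values (TMM), and those for scaling to mesenchymal markers are given further on.

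**Figure D1:**
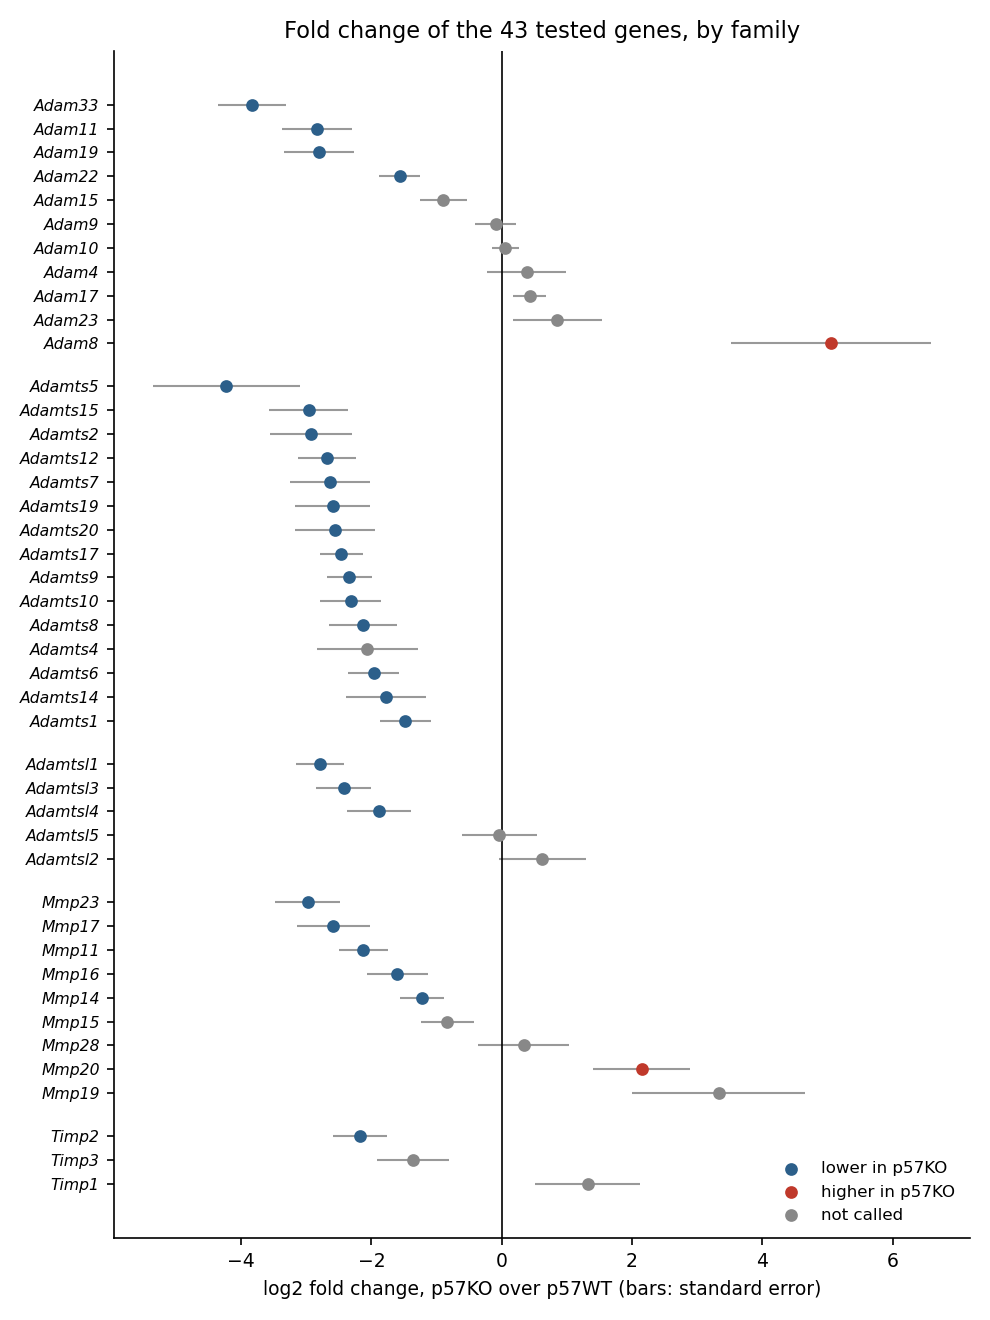
Log2 fold change of p57KO over p57WT (horizontal axis) for each of the 43 tested genes, grouped by family, with bars for 1 standard error, under TMM scaling; 27 genes lie below 0 and are called lower, 2 are called higher and 14 are not called. Under scaling to smooth muscle markers 1 gene, Adam33, is called lower, against 0.377% of all genes tested. On that scale 16 are called higher, against 85.1% of all genes tested.

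The 8 members under the filter were Adam7, Adam30, Adamts3, Adamts13, Adamts16, Adamts18, Mmp9 and Mmp12. With no filter, 27 of all 51 were lower and 2 higher, against 14.3% and 17.2% of all 20579 genes. The filter asked for about 0.893 CPM in at least 5 libraries: 29 members reached that level in all 10 libraries, 5 in all p57WT libraries but not all p57KO libraries, and 21 of the 29 were lower. The 5 that reached it in all p57WT libraries only were all lower, as such genes largely had to be. In these bulk samples, fewer cells of a type and less RNA per cell cannot be told apart. The labels describe the libraries as from 5 intestines per genotype but carry no animal identifiers, so the p-values measure the spread between these libraries.

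Among the 7 ADAMs with a catalytic site, 2 were lower, 1 was higher and 4 did not pass the test. Adam33, a protease known from airway smooth muscle and fibroblasts (chr2:131050591-131063814, minus strand), stood at 1.89, 3.01, 13.3, 8.78 and 13.6 CPM in p57KO 1 to 5 and at 69.5, 179.9, 117, 107 and 105 CPM in p57WT 1 to 5. The highest p57KO library was below the lowest p57WT library by a wide margin, and p57KO 1 and p57KO 2 were the lowest of all. Its mean was 8.12 ± 5.53 CPM in p57KO and 116 ± 40.1 CPM in p57WT (SD, n = 5 each), a log2 fold change of -3.83 (SE 0.52, edgeR adjusted p = 0.000394). Adam19, a sheddase of neuregulins, stood at 1.72, 5.51, 17.6, 12.1 and 23.9 CPM in p57KO and at 54.5, 99.5, 86.2, 68.9 and 115 CPM in p57WT. The groups did not overlap, and p57KO 1 and p57KO 2 were again lowest (log2 fold change -2.80, SE 0.53, edgeR adjusted p = 0.00208).

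The main sheddases did not follow under TMM scaling. Adam10, which starts the cleavage of Notch after its ligand binds (chr9:70678997-70780229, plus strand), stood at 93.7, 62.3, 107, 98.1 and 91.7 CPM in p57KO and at 74.8, 107, 85.9, 76.1 and 91.4 CPM in p57WT. The groups overlapped over nearly their whole range (log2 fold change 0.06, SE 0.21, edgeR adjusted p = 0.851). Adam17, the enzyme that releases tumour necrosis factor and several ligands of the epidermal growth factor receptor, stood at 19.1, 41.3, 39.7, 34.2 and 37.5 CPM in p57KO and at 27.7, 25.02, 29.0, 17.3 and 28.5 CPM in p57WT. All p57KO libraries except p57KO 1 were above every p57WT library (log2 fold change 0.43, SE 0.25, edgeR adjusted p = 0.193). When p57KO 1 was left out the value was 0.59 with an edgeR adjusted p of 0.0412. With libraries scaled to the epithelial markers, Adam10 (-1.34, edgeR adjusted p = 0.00378) and Adam17 (-0.95, edgeR adjusted p = 0.0337) were called lower. That scale called 10701 of all 16710 genes tested lower. Scaled to smooth muscle markers both were called higher, as were 85.1% of all genes. Adam9 (log2 fold change -0.09) and Adam15 (-0.90, edgeR adjusted p = 0.0664) were not called. Without p57KO 2, Adam15 was called, at -1.24 (edgeR adjusted p = 0.0102), but 20.6% of its exon bases also lie in a gene on the opposite strand, and whether the counting used strand is not given in the sources used here.

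Adam8 went the other way. This ADAM, typical of neutrophils and macrophages (chr7:139978932-139992562, minus strand), stood at 21.1, 175, 1.09, 0.384 and 0.870 CPM in p57KO 1 to 5 and at 2.73, 0.435, 1.45, 1.44 and 0.119 CPM in p57WT 1 to 5. Only p57KO 1 and p57KO 2 were high, and the other p57KO libraries lay within the p57WT range. The log2 fold change of 5.05 (SE 1.54, edgeR adjusted p = 0.0215) dropped to 2.16 when p57KO 2 was left out (edgeR adjusted p = 0.148) and to 4.77 when p57WT 5 was (edgeR adjusted p = 0.051). Leaving out both p57KO 1 and p57KO 2 gave -0.60 (edgeR adjusted p = 0.572). The call was also lost with a replicate block (2.12, edgeR adjusted p = 0.254) and with limma voom (2.35, limma voom adjusted p = 0.364). The 5 of 10 neutrophil markers in the table (S100a8, Ly6g, Ltf, Elane and Mpo) summed to 600 and 4395 CPM in p57KO 1 and p57KO 2, to between 15.6 and 43.1 CPM in the other p57KO libraries and to between 1.19 and 10.9 CPM in p57WT. Nearly all of the sum in p57KO 1 and p57KO 2 was S100a8, at 580 and 4365 CPM. Ly6g (12.2 and 8.85 CPM) and Elane (1.12 and 8.13 CPM) were also highest in these 2 libraries. Ltf did not set them apart (5.76 and 11.2 CPM, with 10.8 CPM in p57KO 3), and Mpo was high in p57KO 2 only (2.41 CPM). The 8 macrophage markers summed to 697 CPM in p57KO 2, against 29.3 to 127 CPM in the other p57KO libraries and 8.90 to 71.6 CPM in p57WT, with 5 of the 8 called higher. The part of these cells in the Adam8 result was not tested.

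ADAMs without a working catalytic site act in binding. The 3 tested are best known from neurons, and 2 of them were lower. Adam11 stood at 0.860, 0.254, 1.61, 1.11 and 2.52 CPM in p57KO and at 7.51, 11.5, 12.1, 9.16 and 4.74 CPM in p57WT, with no overlap (log2 fold change -2.83, SE 0.53, edgeR adjusted p = 0.00197). Adam22 stood at 4.21, 4.53, 5.92, 5.56 and 5.48 CPM in p57KO and at 8.42, 19.3, 10.9, 18.3 and 19.2 CPM in p57WT. Its p57KO libraries lay close together below every p57WT library (log2 fold change -1.57, SE 0.31, edgeR adjusted p = 0.00261). Adam23 (log2 fold change 0.85) was not called, nor was Adam4 (0.38), whose activity is not classed here.

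**Figure D2:**
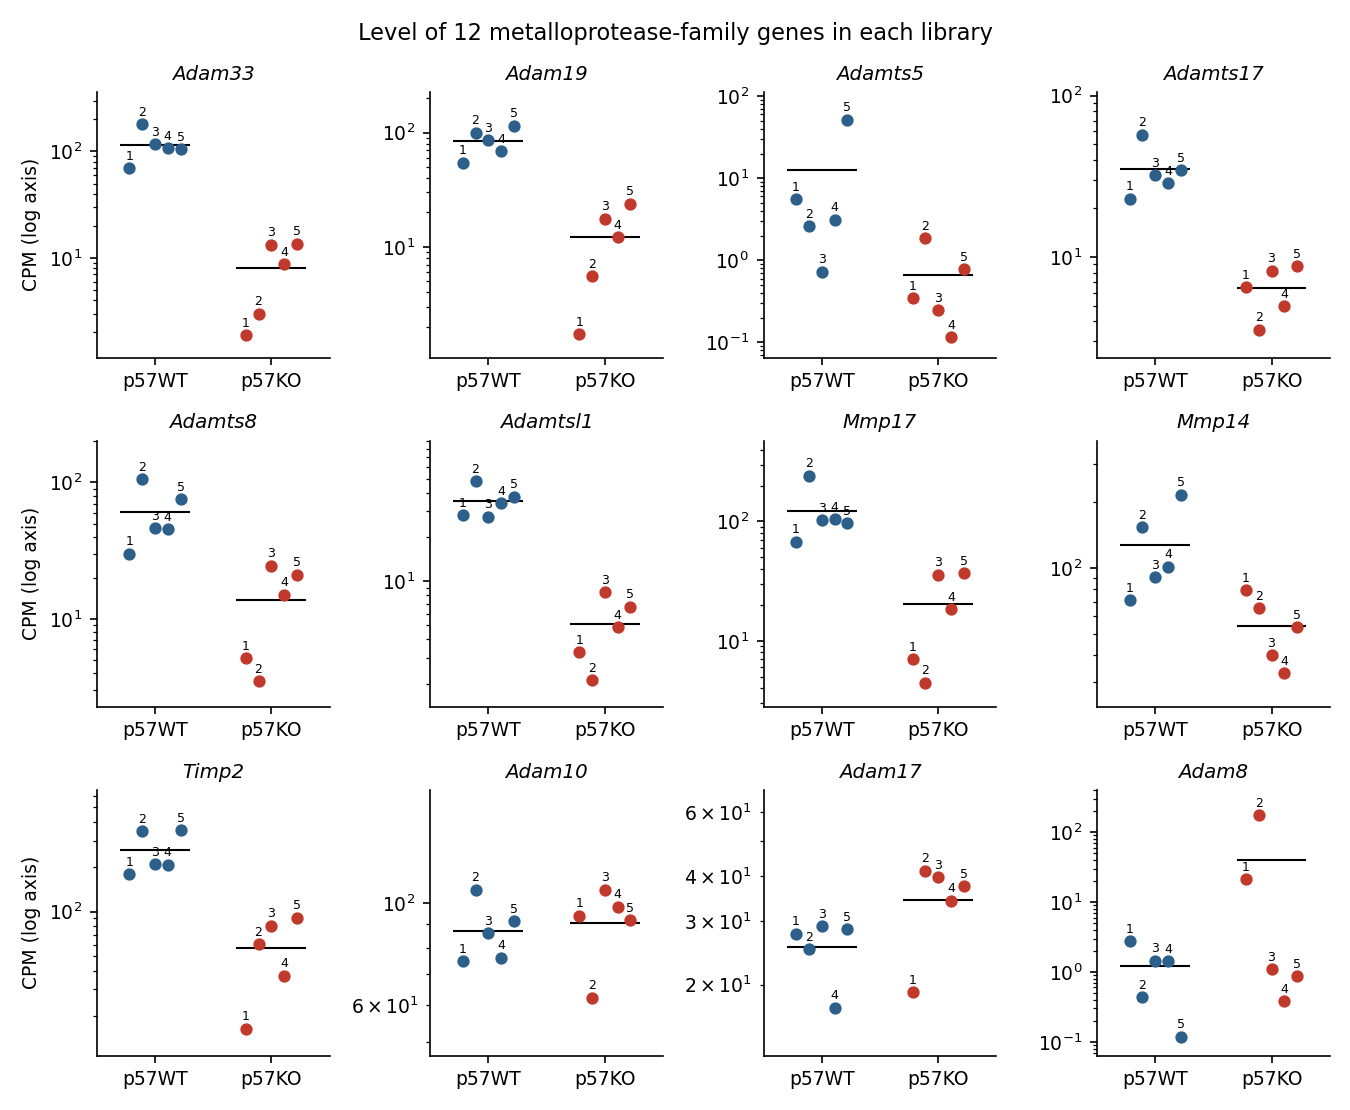
CPM on log axes for 12 of the genes, 1 panel a gene, with a point for each p57WT (left) and p57KO (right) library, its replicate number above it and a line at the mean of 5. Adam33 and Adam19 separate the genotypes, Adam10 does not, and Adam8 is high in p57KO 1 and p57KO 2 only.

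The ADAMTS family was the most uniform. Of its 15 tested genes, 14 were lower under TMM scaling and 0 were higher, with a median log2 fold change of -2.46; when libraries were scaled to smooth muscle markers 0 of the 15 were lower and 1, Adamts1, was higher, where 85.1% of all genes were. The member that did not pass the test was Adamts4 (log2 fold change -2.06, edgeR adjusted p = 0.0515). It was called without p57KO 2, at -2.77 (edgeR adjusted p = 0.0219), and without p57WT 1, at -2.33 (edgeR adjusted p = 0.0305). Without p57WT 5 it was -1.14 (edgeR adjusted p = 0.227).

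Of the 7 ADAMTS genes whose enzymes cleave proteoglycans, 6 were lower. Adamts5, an aggrecanase (chr16:85856173-85901828, minus strand), had the lowest log2 fold change of all members. It stood at 0.344, 1.86, 0.245, 0.115 and 0.783 CPM in p57KO and at 5.58, 2.61, 0.726, 3.14 and 51.7 CPM in p57WT. Most of the p57WT mean came from p57WT 5, and the groups overlapped at p57KO 2, p57KO 5 and p57WT 3. The log2 fold change was -4.23 (SE 1.12, edgeR adjusted p = 0.0114), -2.15 without p57WT 5 (edgeR adjusted p = 0.0576) and -5.18 without p57KO 2 (edgeR adjusted p = 0.0101). Adamts15, which cleaves versican, stood at 4.47, 1.10, 4.76, 2.57 and 5.40 CPM in p57KO and at 10.02, 21.5, 71.2, 9.03 and 30.3 CPM in p57WT. The groups did not overlap, and p57WT 3 was highest (log2 fold change -2.96, SE 0.60, edgeR adjusted p = 0.00285; without p57WT 3 it was -2.28). Adamts9, a versican-cleaving enzyme of broad expression, stood at 3.61, 5.08, 10.4, 6.06 and 11.1 CPM in p57KO and at 20.4, 41.0, 43.3, 39.2 and 39.1 CPM in p57WT. Apart from p57WT 1, its p57WT values were nearly level, and all were above p57KO (log2 fold change -2.34, SE 0.35, edgeR adjusted p = 0.000599).

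Also lower were Adamts1, at 8.01 to 21.9 CPM in p57KO and 18.6 to 62.2 CPM in p57WT, Adamts8, at 3.52 to 24.6 against 30.2 to 106 CPM, and Adamts20, at 0.254 to 2.87 against 4.86 to 9.08 CPM. Their log2 fold changes were -1.48, -2.13 and -2.56. Adamts1 and Adamts5 are neighbours on chromosome 16, 53.1 kb apart, and Adamts8 and Adamts15 are neighbours on chromosome 9, 20.1 kb apart, so both of these neighbouring pairs were lower. For Adamts8, 10.6% of exon bases lie in an antisense gene. From a list of 8 aggrecan-family proteoglycans and link proteins, 3 genes were tested, and the only proteoglycan among them was versican. Of the link proteins, Hapln1 rose (log2 fold change 3.18, SE 0.82, edgeR adjusted p = 0.00995). It was high in p57KO 3 to 5 only, at 28.9 to 46.8 CPM, with 3.44 and 1.06 CPM in p57KO 1 and p57KO 2 and 1.304 to 4.114 CPM in p57WT. Hapln3 fell (-2.05, SE 0.72, edgeR adjusted p = 0.0391) and versican itself, Vcan, did not pass the test (means of 39.5 ± 56.6 CPM in p57KO and 32.9 ± 60.0 in p57WT, SD, n = 5 each, edgeR adjusted p = 0.866).

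Both tested procollagen-processing ADAMTS genes were lower. Adamts2, which removes the amino-terminal propeptide of fibrillar collagens, stood at 2.41, 4.32, 2.07, 1.07 and 6.18 CPM in p57KO and at 7.06, 13.8, 22.5, 13.5 and 64.5 CPM in p57WT. The groups came near each other at p57KO 5 and p57WT 1 without overlapping, and p57WT 5 was highest (log2 fold change -2.93, SE 0.62, edgeR adjusted p = 0.00373; without p57WT 5 it was -2.15). Adamts14 was lower by a margin that most single libraries decided: its log2 fold change was -1.77 (edgeR adjusted p = 0.0367), and it lost the call when any 1 library other than p57KO 5 or p57WT 1 was left out, with an edgeR adjusted p of up to 0.0878. Without p57KO 5 it was -2.49 (edgeR adjusted p = 0.00463).

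All 6 other tested ADAMTS genes were lower. Adamts12, which cleaves cartilage oligomeric matrix protein, stood at 1.89, 1.23, 4.202, 4.30 and 6.62 CPM in p57KO and at 13.9, 24.7, 19.1, 24.3 and 35.2 CPM in p57WT. The groups did not overlap (log2 fold change -2.69, SE 0.44, edgeR adjusted p = 0.00103). Adamts17, an enzyme needed for microfibrils (chr7:66839735-67153171, plus strand), stood at 6.54, 3.56, 8.23, 4.95 and 8.79 CPM in p57KO and at 23.0, 57.2, 32.2, 28.8 and 34.6 CPM in p57WT. Here the p57KO libraries were close together and p57KO 1 was not low, unlike in Adam33 and Adam19 (log2 fold change -2.46, SE 0.33, edgeR adjusted p = 0.000385). The fibrillin-associated genes Adamts6 and Adamts10 had log2 fold changes of -1.97 and -2.32, Adamts7 -2.64 (-1.94 without p57WT 5) and Adamts19 -2.59 (-3.19 without p57KO 5), and none of these 4 overlapped between genotypes.

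Of the 5 ADAMTS-like genes, 3 were lower under TMM scaling, and 0 were lower and 2 higher under smooth muscle scaling, which called 85.1% of all genes higher. Adamtsl1 stood at 3.27, 2.12, 8.40, 4.87 and 6.70 CPM in p57KO and at 28.2, 48.2, 27.5, 34.1 and 37.6 CPM in p57WT. All p57WT libraries were above all p57KO libraries (log2 fold change -2.79, SE 0.37, edgeR adjusted p = 0.000351). Adamtsl3 stood at 4.39, 1.06, 5.46, 3.22 and 4.96 CPM in p57KO and at 16.05, 29.0, 22.1, 12.6 and 22.5 CPM in p57WT, also with no overlap (log2 fold change -2.43, SE 0.42, edgeR adjusted p = 0.00125). Adamtsl4, which binds fibrillin, stood at 5.42, 15.0, 3.68, 2.26 and 4.18 CPM in p57KO and at 12.4, 39.4, 20.3, 17.5 and 23.0 CPM in p57WT. Only p57KO 2 reached into the p57WT range (log2 fold change -1.88, SE 0.49, edgeR adjusted p = 0.0105; without p57KO 2 it was -2.54). Adamtsl2 (log2 fold change 0.63) and Adamtsl5 (-0.03) were not called. Adamtsl5 was at 40.4 CPM in p57WT 5, against 3.87 to 8.31 CPM in the other p57WT libraries and 6.45 to 18.1 CPM in p57KO.

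Among the 9 MMPs tested, 5 were lower and 1 was higher under TMM scaling, and 0 were lower and 5 higher under smooth muscle scaling, which called 85.1% of all genes higher. Of the 5 anchored in the membrane, 4 were lower. Mmp14, a collagenase that also activates other MMPs (chr14:54431612-54445364, plus strand), stood at 78.9, 65.3, 39.8, 33.1 and 53.6 CPM in p57KO and at 71.1, 154, 91.0, 101 and 217 CPM in p57WT. In contrast to the other lower members so far, its highest p57KO library was p57KO 1, and that library was above 1 of the p57WT libraries (log2 fold change -1.23, SE 0.33, edgeR adjusted p = 0.0129). Mmp17, held at the membrane by a lipid anchor, stood at 6.97, 4.45, 35.7, 18.3 and 36.9 CPM in p57KO and at 67.7, 242, 102, 104 and 96.3 CPM in p57WT. The groups did not overlap, and p57KO 1 and p57KO 2 were lowest (log2 fold change -2.58, SE 0.56, edgeR adjusted p = 0.00419).

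Mmp23, an MMP with an unusual amino-terminal membrane anchor, stood at 1.29, 4.57, 3.12, 2.91 and 3.22 CPM in p57KO and at 11.95, 25.8, 13.8, 11.8 and 56.8 CPM in p57WT. The groups did not overlap and p57WT 5 was highest (log2 fold change -2.98, SE 0.50, edgeR adjusted p = 0.00112; without p57WT 5 it was -2.38). Mmp16 stood at 1.20, 3.22, 8.30, 6.48 and 7.22 CPM in p57KO and at 8.20, 20.3, 17.5, 12.8 and 21.6 CPM in p57WT. Only p57KO 3 and p57WT 1 touched (log2 fold change -1.60, SE 0.46, edgeR adjusted p = 0.0173). Mmp15 did not pass the test (log2 fold change -0.83, edgeR adjusted p = 0.125), but did without p57KO 5 (-1.19, edgeR adjusted p = 0.027).

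The 4 secreted MMPs tested did not share a direction. Mmp11, which is released already activated, stood at 2.32, 3.39, 7.11, 6.10 and 6.79 CPM in p57KO and at 16.2, 37.5, 16.5, 20.5 and 21.5 CPM in p57WT. The groups did not overlap (log2 fold change -2.12, SE 0.37, edgeR adjusted p = 0.00138). Mmp20, known from tooth enamel, was the other member called higher, at 1.89, 2.16, 2.00, 4.45 and 0.522 CPM in p57KO and 0.341, 0.237, 0.847, 1.18 and 0.00 CPM in p57WT. These levels are near the floor, p57KO 5 lay within the p57WT range, and the call (log2 fold change 2.15, SE 0.75, edgeR adjusted p = 0.0386) was lost in 7 of the 10 fits that left out 1 library: p57KO 2, 3 or 4, or p57WT 1, 2, 3 or 5. The edgeR adjusted p then reached 0.112.

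Mmp19 stood at 6.97, 57.2, 3.57, 0.268 and 0.609 CPM in p57KO and at 0.341, 0.277, 0.121, 1.18 and 5.10 CPM in p57WT. As with Adam8, p57KO 2 and then p57KO 1 were highest (log2 fold change 3.33, SE 1.33, edgeR adjusted p = 0.0638). It was called without p57KO 4, p57KO 5 or p57WT 5, with a value of 4.91 without p57WT 5 (edgeR adjusted p = 0.0286). Without p57KO 2 it was 1.005 (edgeR adjusted p = 0.486), and with both p57KO 1 and p57KO 2 left out it was 0.20 (edgeR adjusted p = 0.898). Of its exon bases, 22.3% lie in Tmem198b on the opposite strand. Mmp28 was not called (log2 fold change 0.34).

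The 3 TIMPs differed among themselves. Timp2, which binds Mmp14 at the cell surface (chr11:118301069-118355740, minus strand), stood at 16.3, 60.2, 80.6, 37.0 and 90.9 CPM in p57KO and at 179, 347, 207, 206 and 351 CPM in p57WT. Every p57WT library was above every p57KO library (log2 fold change -2.18, SE 0.41, edgeR adjusted p = 0.00202). Timp3, the matrix-bound inhibitor that also blocks ADAM17 and ADAMTS enzymes, stood at 11.95, 23.8, 113, 66.5 and 58.0 CPM in p57KO and at 86.1, 326, 99.2, 109 and 84.4 CPM in p57WT. Only p57KO 3 reached the p57WT range (log2 fold change -1.37, SE 0.55, edgeR adjusted p = 0.0678). It was called without p57KO 3, at -1.80 (edgeR adjusted p = 0.0274), and was -0.78 without p57WT 2, its highest library (edgeR adjusted p = 0.234). Its exons share 21.3% of their bases with Syn3 on the opposite strand. Timp1 stood at 18.0, 54.4, 3.61, 3.64 and 3.13 CPM in p57KO and at 5.24, 5.97, 1.69, 4.84 and 15.4 CPM in p57WT. Its highest libraries were p57KO 2 and p57KO 1 (log2 fold change 1.32, SE 0.80, edgeR adjusted p = 0.208). Without p57KO 2 the value was 0.0537 (edgeR adjusted p = 0.959).

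Per kilobase of exon, the level at which genes can be compared with each other, the order of the 51 members differed between the genotypes. In p57WT the highest means were Timp2 at 66.2 ± 21.6, Adam33 at 21.5 ± 7.44, Mmp14 at 21.3 ± 9.86, Mmp17 at 18.5 ± 10.4, Adam10 at 17.7 ± 2.65 and Timp3 at 17.3 ± 12.8 CPM per kb (SD, n = 5). Timp2 stood apart from the next 5, whose means differed by less than the SD of each of them except Adam10. In p57KO the highest were Timp1 at 18.6 ± 24.9, Adam10 at 18.4 ± 3.41, Timp2 at 14.6 ± 7.88, Mmp14 at 9.08 ± 3.12 and Adam8 at 8.54 ± 16.4 CPM per kb. The places of Timp1 and Adam8 rest on p57KO 1 and p57KO 2. Adam33 moved from place 2 in p57WT to place 17 in p57KO, and Adamts5 from place 30 to place 48.

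**Figure D3:**
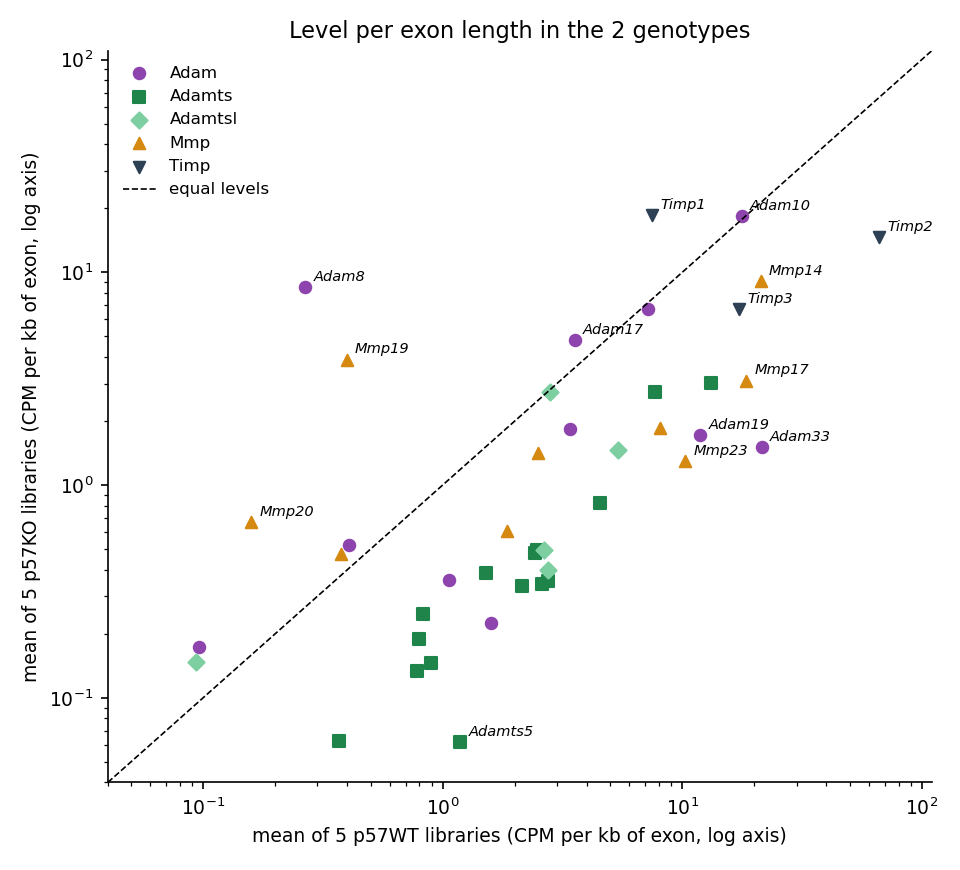
Mean level of p57KO (vertical) against p57WT (horizontal) in CPM per kb of exon, both on log axes, with a point for each of the 43 tested genes and a dashed line at equal levels. Adam10 lies on the line, Timp2, Adam33 and the Adamts genes lie below it, and Adam8 and Mmp19, high in 2 p57KO libraries, lie above it.

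Summed over each family, the ratio of the genotype means was smallest in the ADAMs and largest in the ADAMTS genes, with no test of the sums. The ADAMTS sum was 10.1 ± 3.59 CPM per kb in p57KO and 44.9 ± 18.2 in p57WT, and the ADAM sum was 45.0 ± 14.8 and 68.9 ± 15.9 CPM per kb. In p57KO 2, Adam8 made up 37.6 of the ADAM sum of 70.5 CPM per kb. The MMP sum was 22.8 ± 7.34 against 63.6 ± 25.4, the TIMP sum 40.0 ± 23.1 against 91.0 ± 33.5 and the ADAMTSL sum 5.22 ± 1.80 against 13.7 ± 4.90 CPM per kb. The ratio of the TIMP sum to the MMP sum ranged from 1.25 to 2.30 in p57KO libraries and from 1.31 to 1.67 in p57WT libraries, so the ranges overlapped.

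Markers of mesenchymal cells moved with the lower members. All 9 smooth muscle markers were lower in p57KO (median log2 fold change -2.31), as were 4 of the 5 fibroblast markers in the table (Col1a1, Col1a2, Col3a1 and Lum, median of the 5 -2.63) and all 4 pericyte markers, while all 12 epithelial markers were higher (median 1.39). Fibroblast markers summed to 125, 211, 1068, 672 and 1177 CPM in p57KO 1 to 5 and to 2349, 5170, 3016, 3208 and 8193 CPM in p57WT 1 to 5. Among the 27 lower members, the lowest p57KO library was most often p57KO 2 (11 genes) or p57KO 1 (9), the same libraries that were lowest in smooth muscle and fibroblast markers, and the highest was most often p57KO 5 (16). The highest p57WT library was most often p57WT 5 (14), which was highest in fibroblast markers, or p57WT 2 (9), which was highest in smooth muscle markers. None of the 3 endothelial markers tested was called.

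**Figure D4:**
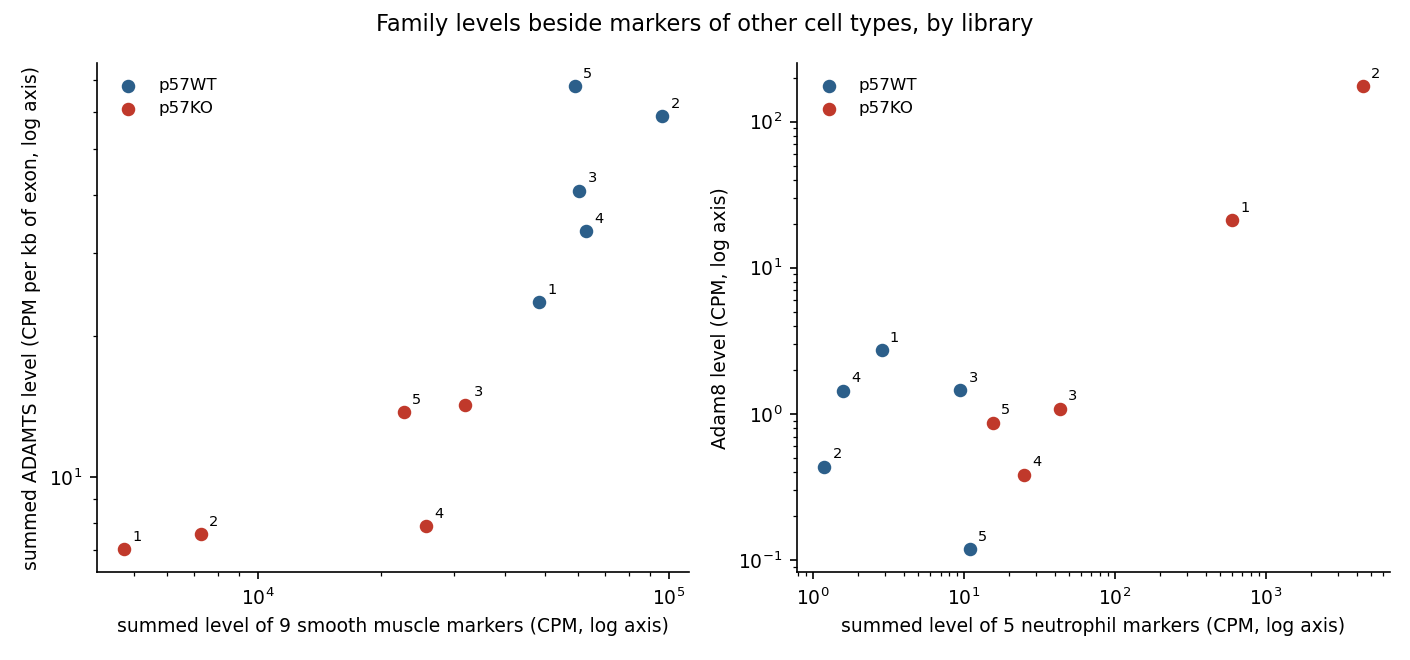
Left, summed ADAMTS level (CPM per kb of exon) against summed smooth muscle markers (CPM), and right, Adam8 (CPM) against summed neutrophil markers (CPM), 1 point a library with its replicate number, all log axes. The p57KO libraries are lower on both axes on the left, and p57KO 1 and p57KO 2 are high on both axes on the right. In p57KO 1 and p57KO 2 the neutrophil sum is nearly all S100a8.

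When libraries were scaled to those markers instead of to all genes, most member calls ended. With smooth muscle markers as the scale, 1 member was lower, against 0.377% of all genes, and 16 were higher, against 85.1% of all genes, because that scale moved the median log2 fold change of all genes to 3.01. The member median was then 0.50. Relative to the smooth muscle markers, 24 of the 27 lower members were not called, Adamts1 and Mmp14 were higher, and Adam33 was lower (log2 fold change -1.66, edgeR adjusted p = 0.0046). With the 5 fibroblast markers as the scale, 1 member was lower, against 0.197% of all genes, and 16 were higher, against 85.6%. The medians were 0.73 for the members and 3.23 for all genes, and the lower member was again Adam33 (-1.60, edgeR adjusted p = 0.0341). Adam33 thus fell further than either marker set as a whole, whereas Timp2 (0.41 and 0.51) and Adamts5 (-0.98 and -0.20) did not differ from these scales by the test. Under TMM scaling the 5 fibroblast markers ranged from -3.22 for Col1a2 (SE 0.61) to -0.52 for Fbln1 (SE 0.41). Adam33 was not tested against single markers. With the smooth muscle level as a term in the model, 8 members were lower, against 9.89% of all genes, and 0 were higher, against 12.5%. The 8 were Adam33, Adamts5, Adamts9, Adamts17, Adamtsl1, Adamtsl4, Mmp14 and Mmp23. Mmp14 was thus lower in this fit (-1.90, edgeR adjusted p = 0.0272) but higher on the smooth muscle scale (1.98, edgeR adjusted p = 0.0151). Adamts5 was lower in this fit (-6.38, edgeR adjusted p = 0.0426) but not called on that scale.

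**Figure D5:**
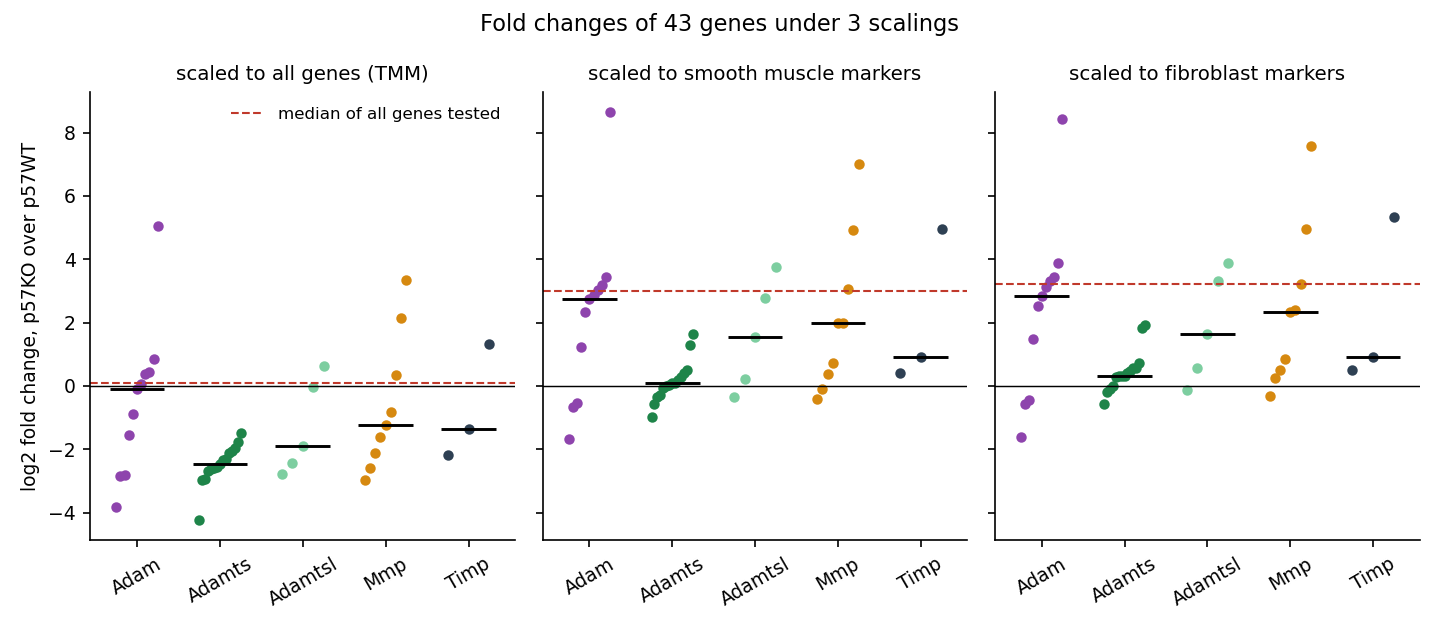
Log2 fold changes (vertical axis) of the 43 genes by family, with each family's median as a bar and the median of all genes tested as a dashed line, under TMM, smooth muscle marker and fibroblast marker scaling. The ADAMTS median moves from -2.46 to 0.09 and 0.31, and the median of all genes from 0.08 to 3.01 and 3.23.

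Each library's label carries a number whose meaning is not given: 607 for p57KO 1, p57KO 2 and p57WT 1, 608 for p57KO 3 to 5 and 740 for p57WT 2 to 5. Only 607 holds both genotypes. Within 607, with 2 p57KO libraries against 1, 13 members were lower, against 4.94% of all genes, and 0 were higher, against 1.1%. The 13 were Adam11, Adam19, Adam33, Adamts6, Adamts8, Adamts9, Adamts10, Adamts12, Adamts17, Adamts20, Adamtsl1, Mmp11 and Mmp17, all among the 27. The lone p57WT library, p57WT 1, was assumed there to vary like the others. It was the lowest p57WT library in 17 of the 27 lower members. Among p57WT libraries it was also lowest in summed smooth muscle markers (48302 CPM) and fibroblast markers (2349 CPM). The part of this in the values within 607 was not tested. Among the other 14, the log2 fold change within 607 was 0.02 for Mmp14, -0.08 for Adamts1, -0.27 for Adamtsl4 and -1.05 for Adamts2, against -1.48 or lower for each of the last 3 over all libraries. It was -0.94 for Adam22, -1.86 for Mmp16, -1.88 for Adamts15, -1.99 for Mmp23 and -2.10 for Adamts7. Timp2 was at -2.22, Adamts5 at -2.26, Adamts14 at -2.36, Adamts19 at -2.54 and Adamtsl3 at -2.59.

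Within p57KO, 7 members differed between 608 and 607, against 6.68% of all genes. Higher in 608 were Adam33 (log2 fold change 2.25, edgeR adjusted p = 0.00811), Adam19 (2.27), Mmp17 (2.42), Adamts8 (2.23) and Adamts12 (1.70), and lower were Adam8 (-6.97, edgeR adjusted p = 0.00312) and Timp1 (-3.38). In p57WT the number 607 holds 1 library, p57WT 1. A comparison of 740 with 607 there rests on that library, as does the comparison within 607. For the 27 lower members the log2 fold change of 740 over 607 ran from 0.08 for Adamts20 to 2.01 for Adamts2. With 1 library in 607, these sizes do not settle whether members differ. Without p57KO 1 and p57KO 2, 28 of 44 members were lower, against 19.1% of all genes, and 1 was higher, against 20.6%. Of the 28, 26 were among the 27, with Adam33 at -3.23 and Adam19 at -2.20.

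Genes that work beside the families moved in both directions, as did genes in general, of which 19.3% of those tested were higher and 17.2% lower. Of the partners of ADAM10 and ADAM17, 2 of 8 were higher and 2 lower: Rhbdf1, which carries ADAM17 to the cell surface, fell (log2 fold change -1.26, SE 0.28, edgeR adjusted p = 0.00482), as did Tspan5 (-1.33, edgeR adjusted p = 0.0155), and Tspan14 (0.94, edgeR adjusted p = 0.00959) and Tspan15 (1.09, edgeR adjusted p = 0.0249) rose, these 3 being tetraspanins that bind ADAM10. Of 7 shed growth factors, Areg rose (1.98, edgeR adjusted p = 0.0341) and Egf fell (-1.71, edgeR adjusted p = 0.00482). Areg was high in p57KO 1 and p57KO 2 only, at 26.5 and 90.9 CPM, with 7.36 to 8.51 CPM in p57KO 3 to 5 and 4.84 to 10.8 CPM in p57WT. In p57KO 1 and p57KO 2 the summed neutrophil markers, nearly all S100a8, were high. The part of neutrophils in the Areg result was not tested. None of the 5 proprotein convertases, which activate many of these enzymes, was called, with edgeR adjusted p-values from 0.0838 for Pcsk6 to 0.855 for Pcsk7.

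Among 8 other regulators tested, Reck, a membrane-anchored inhibitor, fell from 35.9 ± 16.7 to 6.08 ± 4.49 CPM (log2 fold change -2.55, edgeR adjusted p = 0.00414), and so did Lrp1, a receptor that clears proteases (-1.51, edgeR adjusted p = 0.00348). Tfpi2, a secreted inhibitor, rose (2.62, edgeR adjusted p = 0.00503). Of 5 other proteases of the same superfamily, the epithelial meprins Mep1a (1.68, edgeR adjusted p = 0.00111) and Mep1b (3.25, edgeR adjusted p = 0.00126) rose, and Bmp1, the procollagen C-proteinase, fell (-2.06, edgeR adjusted p = 0.00198), as did Pappa (-2.96). The meprins thus moved with the epithelial markers and Bmp1 and Reck with the mesenchymal ones, and the part of cell content in this was not tested.

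Other protease classes were mixed in direction. Of 9 cysteine cathepsins, which act in lysosomes, 5 were higher and 1 was lower, against 19.3% and 17.2% of all genes tested. The median log2 fold change of the 9 was 1.57. Summed, the 9 stood at 4644 CPM in p57KO 2, the library with the highest macrophage and neutrophil markers, at 986 to 2110 CPM in the other p57KO libraries and at 542 to 795 CPM in p57WT. The part of those cells was not tested. Ctsc (2.97, edgeR adjusted p = 0.00143), Ctsz (1.87, edgeR adjusted p = 0.00208) and Ctsb (1.57, edgeR adjusted p = 0.0025) rose, and Ctsk, the collagen-cutting cathepsin of osteoclasts and fibroblasts, fell (-2.43, edgeR adjusted p = 0.00348). Of 6 genes of plasminogen activation, Serpinf2 (3.84, edgeR adjusted p = 0.000404) and Plgrkt (1.38, edgeR adjusted p = 0.00121) rose and Plau, the urokinase, fell (-1.85, edgeR adjusted p = 0.0142).

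The authors' deposited table called 29 members lower, against 17% of all genes in it, and 3 higher, against 20.5%, at an adjusted p below 0.05. All 29 members called here had the same sign and call there, and Adamts4, Adamts16 and Mmp19 were called there in addition.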

How the data were processed

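RNA-seq counts of 10 libraries were used, 5 of each genotype. The table the authors deposited holds whole-number read counts per gene, not normalized, per the file headers. It also holds a signal per library, each count divided by 1 size factor, and the authors' genotype comparison as log2 fold changes with standard errors, a Wald score, and p-values with adjusted p-values, per the file headers. Tools listed in the submitters' processing notes are HTSeq 1.0, STAR 2.6.1d, DESeq2 1.22.2, Cufflinks 2.2.1, Trim Galore and FastQC, and the build is GRCm38 (mm10). The sources used here do not give their roles or the strand setting.

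The genotype test was edgeR 4.0.16, run in R 4.3.3 (quasi-likelihood test, TMM scaling, expression filter with a minimum count of 10, genotype as the only term) on the counts of all 20579 genes. The filter left 16710, of which 7923 had an unadjusted p below 0.05. Adjusted p-values (Benjamini-Hochberg) run over all genes tested and are called below 0.05. The SE is the fitted log2 fold change divided by the square root of its F value. CPM uses TMM-scaled library sizes, and CPM per kb divides by the union of exons in GENCODE M21, which also gave the coordinates and matched all 51 members. The floor covers counting error only, while the SEs and SDs include the spread between libraries. No pair of libraries of a genotype agreed within sampling noise (chi-square per degree of freedom at least 54.2 in p57KO and 9.97 in p57WT).

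Every member is accounted for. Values in every library are given for called members with a mean of at least 5 CPM, up to 6 per family by size of change, for members called against their family, for all TIMPs and for Adamts5, Adam33, Adam10 and Adam17; each list of neighbouring genes gives up to 3 by smallest p, and others named there complete its counts. Members, lists and alternatives were chosen with earlier results of these data known. Alternatives were DESeq2 1.42.0, limma voom (limma 3.58.1), DESeq2 size factors, no filter, scaling to cell markers, label number, a replicate block and leaving libraries out. The test was also run on simulated data with known changes, and the outcome is not given here.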

Additional observations from a re-analysis of the deposited data

Results flagged for a closer look

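In 14 of the 86 sets of 5 libraries of one genotype, over the 43 tested members, 1 library stood far from the other 4 by Dixon's test. Chance gives about 1 in 20 for independent, normally distributed values. The CPM values were used without a log transform and the sets are not independent, so that rate is only a rough guide. In the 14 sets, the library was p57WT 5 in 6, p57KO 2 in 4, p57WT 2 in 3 and p57WT 1 in 1. In p57WT 5, Adamts5 was at 51.7 CPM with the next library at 5.58, Adamts2 at 64.5 with 22.5, Adamts7 at 14.3 with 5.08, Adamts4 at 11.1 with 3.04, Adamtsl5 at 40.4 with 8.31 and Mmp19 at 5.10 with 1.18 CPM. In p57KO 2, Adam8 was at 175 CPM with the next at 21.1, Mmp19 at 57.2 with 6.97, Timp1 at 54.4 with 18.0 and Adamtsl4 at 15.0 with 5.42 CPM. In p57WT 2, Mmp17 was at 242 CPM with 104, Timp3 at 326 with 109 and Mmp11 at 37.5 with 21.5 CPM. Adamts9 was low in p57WT 1, at 20.4 CPM with the next at 39.1.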

How the results depend on the processing

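The 27 lower members remained lower with DESeq2 (30 lower and 3 higher; all genes 3593 and 4291), limma voom (30 and 1; all genes 3378 and 3016), DESeq2 size factors (27 and 2; all genes 2859 and 3459) and no filter (27 and 2; all genes 2943 and 3546). The replicate numbers of the titles did not pair the libraries: same-numbered deviations correlated between -0.166 and 0.239, 2 of 5 pairs were over 0.1 and 1 of 5 p57KO libraries correlated best with its own number. A replicate block gave 28 lower and 1 higher member, with 2861 genes higher and 2943 lower. Leaving out 1 library gave 25 to 28 lower and 0 to 3 higher members, 2405 to 3653 higher and 2246 to 3542 lower genes, and 25 of the 27 were lower in all 10 fits, the others being Adamts5 and Adamts14. Without p57KO 1 and p57KO 2 together 1 member was higher and 28 were lower.

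The scale and the label number changed the counts. Smooth muscle scaling, chosen after seeing the data, gave 16 higher and 1 lower member with 14228 higher and 63 lower genes, and fibroblast scaling 16 and 1 with 14298 and 33. Epithelial scaling gave 1 higher and 35 lower members, with 428 higher and 10701 lower genes. With the label number as a term, the same fit as within 607, there were 0 higher and 13 lower members, with 183 higher and 826 lower genes. The smooth muscle level as a term gave 0 higher and 8 lower members, with 2094 higher and 1652 lower genes. Leaving out p57KO 2 and p57WT 5 together, also chosen after seeing the data, gave 0 higher and 25 lower members, with 1997 higher and 2081 lower genes. The cause of these differences was not tested, beyond the shift that each marker scale makes in all genes. Between 608 and 607 in p57KO, 10 members differed with no filter (5.72% of all genes) and 8 with DESeq2 size factors (6.78%).

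Log2 fold changes that changed sign are given with their value. Under fibroblast scaling these were Adam15 (2.53), Adam22 (1.49), Adam9 (2.86), Adamts1 (1.92), Adamts10 (0.31), Adamts14 (0.73), Adamts17 (0.55), Adamts19 (0.27), Adamts2 (0.47), Adamts4 (1.81), Adamts6 (0.58), Adamts7 (0.40), Adamts8 (0.30), Adamts9 (0.31), Adamtsl3 (0.56), Adamtsl4 (1.63), Adamtsl5 (3.32), Mmp11 (0.51), Mmp14 (2.40), Mmp15 (2.32), Mmp16 (0.84), Mmp23 (0.25), Timp2 (0.51) and Timp3 (0.92). Under smooth muscle scaling they were Adam15 (2.34), Adam22 (1.24), Adam9 (2.75), Adamts1 (1.63), Adamts10 (0.10), Adamts14 (0.50), Adamts17 (0.30), Adamts19 (0.0399), Adamts4 (1.304), Adamts6 (0.40), Adamts8 (0.0884), Adamts9 (0.18), Adamtsl3 (0.23), Adamtsl4 (1.54), Adamtsl5 (2.78), Mmp11 (0.38), Mmp14 (1.98), Mmp15 (1.99), Mmp16 (0.72), Timp2 (0.41) and Timp3 (0.90). Under epithelial scaling they were Adam10 (-1.34), Adam17 (-0.95), Adam23 (-0.60), Adam4 (-0.88), Adamtsl2 (-0.71), Mmp28 (-0.93) and Timp1 (-0.45). With the label number as a term, and within 607, they were Adam4 (-0.94), Adam9 (0.16), Adamts4 (1.46), Adamtsl5 (0.57), Mmp14 (0.0183) and Mmp28 (-0.16). With the smooth muscle level as a term they were Adam4 (-0.0546), Adam8 (-3.82), Adam9 (0.59), Adamtsl2 (-0.44), Mmp16 (0.0124), Mmp19 (-1.43), Mmp28 (-0.32), Timp1 (-2.40) and Timp3 (0.86). Without p57KO 1 and p57KO 2 they were Adam8 (-0.60), Adam9 (0.0749), Adamtsl5 (0.0586) and Timp1 (-0.87). Adamtsl5, whose log2 fold change was near 0, also changed sign with limma voom (0.63), DESeq2 size factors (0.000128), no filter (0.0202), the replicate block (0.44), and without p57KO 1 (0.14), p57KO 4 (0.0493), p57WT 5 (1.01) or both p57KO 2 and p57WT 5 (0.82). Adam9 did so without p57KO 1 (0.0787) or p57WT 2 (0.19), with a range over the 10 fits of -0.19 to 0.19, and Mmp28 without p57KO 5 (-0.27). At 3 counts per library, differences at the level of Mmp20 or of Adamts5 in p57KO are close to what the depth can show.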
